A study of Homo sapiens with 6 samples.

Results

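Mucins are large glycoproteins that coat and protect epithelial surfaces, and 10 of their genes were followed in HepG2 cells given ellagic acid (EA). They were MUC1, MUC3A, MUC4, MUC5AC, MUC5B, MUC12, MUC13, MUC15, MUC16 and MUC20, taken by symbol from the 52408 gene rows of a table of read counts. The 10 were chosen with their values in EA and DMSO cells in view, so their own differences are given as a description, without p-values.

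HepG2 is an established human liver cancer line that keeps many hepatocyte traits, and all libraries came from this 1 line. In the EA group the cells spent 24 h in medium with 50 µM EA, a plant polyphenol dissolved in DMSO, and in the DMSO group they had the same volume of DMSO for 24 h. There were 3 libraries per group. Separate cultures are not mentioned in the labels, so SDs and p-values measure the spread of these libraries alone, and that spread may be technical. The series asks which signalling pathways the compound targets in hepatocellular carcinoma cells.

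Reads assigned to genes numbered 15738089 to 19202292 in EA libraries and 22987425 to 25973621 in DMSO libraries. A count of 0 in 1 library allows a level of up to 0.159 to 0.187 CPM (reads of a gene scaled to library size) in EA libraries and 0.117 to 0.13 CPM in DMSO libraries, taken as 3 reads and covering counting error only. The hepatocyte markers ALB (3702 CPM in EA cells, 8430 CPM in DMSO cells) and AFP (1295 CPM in EA cells, 4405 CPM in DMSO cells) were present in both groups. EA library 3 stood apart from the other EA libraries: the chi-square per degree of freedom over genes was 13.5 and 15.7 against EA libraries 1 and 2, which had 3.91 between them, and 3.58 to 4.62 between DMSO libraries. Where leaving it out changed a count of calls named here, or the call of a named gene tested with all libraries, the value without it is given.

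A mucin is a protein chain with long stretches rich in serine, threonine and proline, to which many sugar chains are attached through N-acetylgalactosamine (O-glycans). Gel-forming mucins such as MUC5AC, MUC5B and MUC2 are secreted and make up mucus, while membrane-bound mucins such as MUC1, MUC4, MUC13 and MUC16 stay anchored in the cell surface and can signal or be shed from it. Hepatocytes make little mucin, whereas bile duct, gut and airway epithelia make much, and MUC16 carries the tumour marker CA125.

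The promoters of MUC13, the mucin with the highest level in EA cells, and of MUC16, which had no read in DMSO cells, are shown. They were picked after FOS and JUN of the AP-1 family were seen to rise with EA. SP1 rose too, by 0.80 on the log2 scale, and 9 of 17 tested factors reported to act on mucin genes fell. Whether any factor acts on these promoters was not tested. RefSeq promoter entries on GRCh38.p14 were matched for 6 of the 10 genes (MUC1, MUC3A, MUC4, MUC12, MUC13 and MUC16). The 250 bases before each annotated start are printed from 5′ to 3′ along the gene's strand, which is the minus strand in each case. Capitals mark the AP-1 motif TGANTCA, the TEAD motif GGAATG and the SP1 motif GGGCGG, each searched on both strands, so that CCGCCC is an SP1 motif read from the opposite strand. The first sequence lies at chr3:124934752-124935001, the second at chr19:9065752-9066001 and the third at chr19:9010410-9010659. MUC16 has 2 annotated starts, and the counts do not show which one was used. The first transcribed bases at neither MUC16 start were found in the longest GENCODE 29 transcript of the gene, whereas those of MUC13 were. Shorter transcripts were not searched.
MUC13: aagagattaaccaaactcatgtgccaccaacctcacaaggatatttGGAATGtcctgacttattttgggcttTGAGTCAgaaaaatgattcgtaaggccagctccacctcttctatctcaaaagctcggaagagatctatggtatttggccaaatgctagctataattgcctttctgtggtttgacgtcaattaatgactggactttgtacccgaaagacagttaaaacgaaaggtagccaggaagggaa
MUC16 first start: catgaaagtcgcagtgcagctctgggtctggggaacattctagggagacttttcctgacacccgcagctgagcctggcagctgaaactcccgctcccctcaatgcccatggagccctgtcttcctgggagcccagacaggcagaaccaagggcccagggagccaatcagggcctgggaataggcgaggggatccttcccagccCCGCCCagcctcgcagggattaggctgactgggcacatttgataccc
MUC16 second start: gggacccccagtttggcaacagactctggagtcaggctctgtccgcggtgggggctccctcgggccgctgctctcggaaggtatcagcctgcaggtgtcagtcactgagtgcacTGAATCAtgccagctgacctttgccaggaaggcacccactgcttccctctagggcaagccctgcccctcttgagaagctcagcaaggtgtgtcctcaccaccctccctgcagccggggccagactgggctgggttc

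MUC13 held the AP-1 motif 178 to 172 bases before its start, and a TEAD motif at 204 to 199. MUC16 held an AP-1 motif 136 to 130 bases before one start and an SP1 motif 47 to 42 bases before the other. Among 35116 promoter windows of this length, 6.57% held the AP-1 motif, 11.9% the TEAD motif and 42.6% the SP1 motif. Of the other matched genes, MUC1 held TEAD and SP1 motifs and the TATA box letters TATAAA, which were searched on the gene's strand and occurred in 6.8% of windows. MUC4 held a TEAD and an SP1 motif and MUC3A an SP1 motif. None of these motifs was in the MUC12 window, and the hypoxia motif ACGTG, present in 18.5% of windows, was in none of the 6 genes' windows. A match of letters is a description and not a bound site.

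HepG2 cells given EA carried several-fold more RNA of the 10 mucin genes than those given DMSO, and a different gene led. The 10 genes together had 58.1, 53.7 and 48.6 CPM in the EA libraries, against 9.11, 9.57 and 10.2 CPM in the DMSO libraries. Without MUC15 the sum was 52.9 ± 4.80 CPM in EA cells and 3.26 ± 0.155 CPM in DMSO cells (SD, n = 3 each). MUC13 and MUC16 led the reads in 2 of 3 EA libraries, with MUC5AC ahead of MUC16 in EA library 3, and MUC15 led in every DMSO library. The 13 other family genes with a row summed to 289.9 to 326.9 CPM in EA libraries and 450.6 to 480.8 CPM in DMSO libraries. That sum came mostly from CD164 and MCAM, both lower with EA. In EA and DMSO cells MUC2 had 89 and 5 reads, MUC19 71 and 13, MUC6 33 and 9, and MUC17 14 and 0. MUC7, MUC21 and MUC22 had at most 3 reads a group. In bulk RNA, more cells that express a gene and more RNA per cell cannot be told apart.

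**Figure D1:**
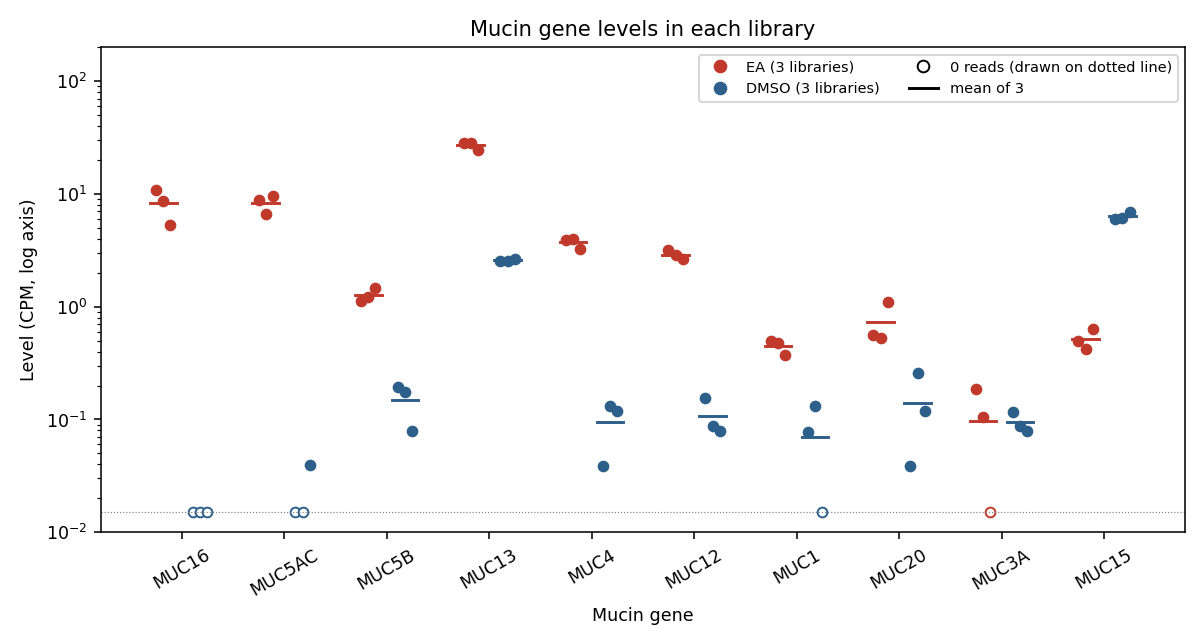
Level of each of the 10 mucin genes in every library, in CPM on a log axis, with EA libraries in red left of DMSO libraries in blue and bars at the mean of 3. Open circles on the dotted line had 0 reads. EA points lie above DMSO points for 8 genes, below them for MUC15, and among them for MUC3A. Of all 15648 tested genes, 82.9% had groups that did not overlap, 41.4% higher and 41.5% lower with EA.

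Over all libraries, 8 of the 10 genes had enough reads for the edgeR test. MUC1 and MUC3A did not. In that fit 7 of the 8 were called higher and 1 lower with EA at an adjusted p under 0.05. Of all 15648 tested genes, 81.0% were called, 40.5% higher and 40.5% lower, and since the members were picked on this contrast nothing is read from their count. MUC4, MUC5AC, MUC5B, MUC12, MUC16 and MUC20 passed the filter on low counts through the EA libraries alone. Among the genes named below, so did MUC2, MUC19, APOD, TFF1, TFF2, MSN, CD44 and KRT14. GALNT16, BPIFB1 and UFSP1 passed it through the DMSO libraries alone. Such genes were tested only because they were high in that group, so their calls lend nothing to a count of calls.

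Among the membrane-bound mucins, MUC16 (ENSG00000181143, chromosome 19) had 173, 165 and 100 reads in the EA libraries and 0 in each DMSO library. That was 10.8, 8.74 and 5.29 CPM in EA cells, a mean of 8.27 ± 2.77 CPM (SD, n = 3). Against a floor of 3 reads over the DMSO group, and with EA reads taken as exact, the fold of MUC16 in EA cells was 200.9. This value is a bound set by the floor and not a measured fold. The exact 95% counting interval of the ratio began lower, at 163. EA library 3 had the lowest of the EA values. The floor-based value was 171.8-fold without EA replicate 1, 191.4-fold without EA replicate 2 and 234.8-fold without EA replicate 3. Leaving out DMSO replicate 1, 2 or 3, which leaves fewer reads behind the floor, gave 128.6-fold, 136.4-fold and 128.7-fold. MUC16 has the longest exons of the 10, 43.8 kb in all, against 3.5 kb for MUC13.

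MUC13 (ENSG00000173702, chromosome 3), a membrane-bound mucin with EGF-like domains that is known from the gut surface, had the most reads of the 10 in EA cells. Its level was 28.5, 28.6 and 24.4 CPM in EA libraries, against 2.53, 2.57 and 2.67 CPM in DMSO libraries. The groups lay far apart and each was tight: the log2 fold change was 3.39 (SE 0.12), from 1459 reads in EA cells and 192 in DMSO cells. As a ratio of CPM it was 10.5, with a 95% exact counting interval of 8.99 to 12.2. It was the only member past the filter's cutoff of 0.474 CPM in all 6 libraries.

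MUC4 (ENSG00000145113, chromosome 3), known as a partner of the receptor ERBB2, had 63, 76 and 61 reads in EA libraries and 1, 3 and 3 in DMSO libraries. Its mean level was 3.72 ± 0.436 CPM in EA cells and 0.0958 ± 0.0497 CPM in DMSO cells (SD, n = 3 each), with a log2 fold change of 5.21 (SE 0.35). The DMSO levels lay at or near the floor of a count of 0, so the size of the fold rests on 7 reads in the DMSO group, and the counting interval of the ratio of 39.3 ran from 18.7 to 99.

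MUC12 (ENSG00000205277, chromosome 7), an intestinal brush border mucin, had 51, 54 and 50 reads in EA libraries and 4, 2 and 2 in DMSO libraries. Its mean was 2.89 ± 0.267 CPM in EA cells and 0.107 ± 0.0423 CPM in DMSO cells (SD, n = 3 each), a log2 fold change of 4.67 (SE 0.35). MUC3A (ENSG00000169894), which starts the same run of genes on chromosome 7 and lies 1.3 kb from MUC12, had 3, 2 and 0 reads in EA libraries and 3, 2 and 2 in DMSO libraries. The groups of MUC3A overlapped, and the ratio of 0.983 had a counting interval of 0.246 to 3.60. At this depth no difference in MUC3A was detectable, while its neighbour had a ratio of 26.7 with an interval of 13.2 to 62.8.

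MUC1 (ENSG00000185499, chromosome 1), the best known membrane-bound mucin, with a signalling tail inside the cell, was close to the floor in both groups. It had 8, 9 and 7 reads in EA libraries and 2, 3 and 0 in DMSO libraries, a ratio of 6.60 with a counting interval of 2.47 to 22.2. The groups did not overlap, but 24 reads in EA cells and 5 in DMSO cells give little precision, and MUC1 was below the filter. Without EA replicate 3 the filter asks for fewer libraries, and MUC1 passed it through EA libraries alone. Its log2 fold change was then 2.72 and its ratio 7.08.

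MUC20 (ENSG00000176945, chromosome 3), reported to bind the receptor MET, had 9, 10 and 21 reads in EA libraries and 1, 6 and 3 in DMSO libraries. EA library 3 and DMSO library 2 were the highest of their groups, and the groups did not overlap. The log2 fold change was 2.40 (SE 0.55). Without DMSO replicate 2 it was 3.12, and without EA replicate 3 it was 1.94.

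MUC15 (ENSG00000169550, chromosome 11), a membrane-bound mucin first described in milk fat globules, was the one member that was lower with EA. It had 8, 8 and 12 reads in EA libraries and 153, 141 and 177 in DMSO libraries. These were 0.498, 0.424 and 0.634 CPM in EA cells, against 5.96, 6.13 and 6.96 CPM in DMSO cells, so each DMSO library was above every EA library by a wide margin. The log2 fold change was -3.60 (SE 0.23), and DMSO cells had 12.2 times the level of EA cells (counting interval 8.35 to 18.6).

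The gel-forming mucins were MUC5AC and MUC5B, which sit side by side on chromosome 11. MUC5AC (ENSG00000215182), the mucin of the stomach surface and the airway, had 142, 126 and 180 reads in EA libraries, against 0, 0 and 1 in DMSO libraries. This was 8.84, 6.68 and 9.51 CPM in EA cells, where EA library 3 was the highest and not, as for MUC16, the lowest. The ratio of 616 has a wide counting interval, 110 to 24400, because it rests on 1 read in the DMSO group.

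MUC5B (ENSG00000117983), the mucin of airway glands and the gallbladder, had 18, 23 and 28 reads in EA libraries and 5, 4 and 2 in DMSO libraries. It averaged 1.27 ± 0.186 CPM in EA cells and 0.149 ± 0.0619 CPM in DMSO cells (SD, n = 3 each), a log2 fold change of 3.06 (SE 0.39). Both gel-forming mucins were thus at or near the floor in DMSO cells, and MUC5AC had several times the reads of MUC5B in each EA library.

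**Figure D2:**
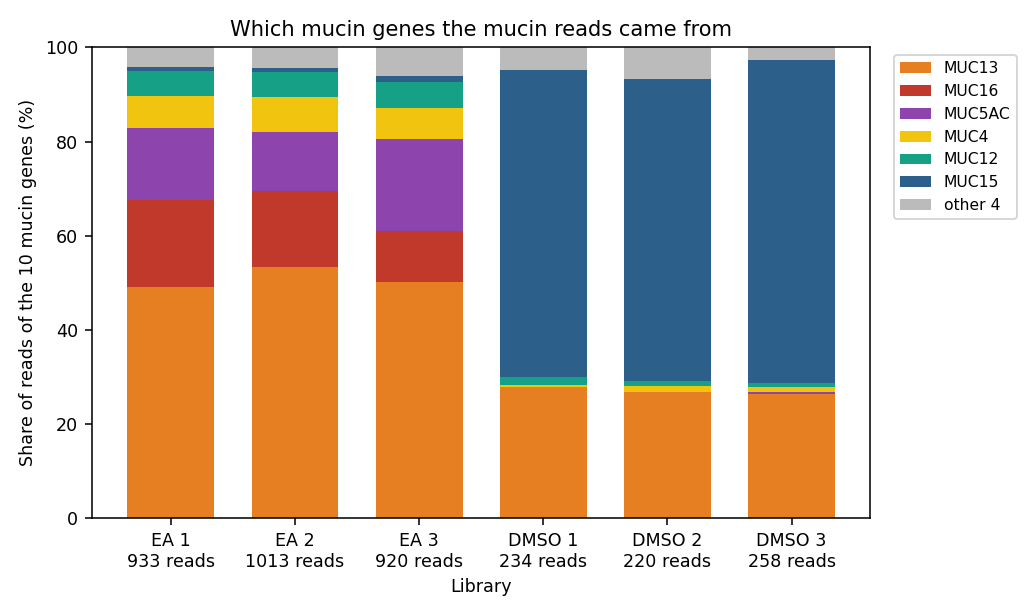
Share of the reads of the 10 mucin genes that each gene took, in percent, for the 3 EA libraries and then the 3 DMSO libraries, with the number of mucin reads under each bar. MUC13 takes 49.1% to 53.3% in EA libraries and 26.4% to 27.8% in DMSO libraries, and MUC15 takes 0.79% to 1.30% in EA libraries and 64.1% to 68.6% in DMSO libraries.

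The make-up of the mucin reads, drawn in the plot of shares, differed between the groups more than within them for MUC13 and MUC15, while MUC16 and MUC5AC also varied among the EA libraries. MUC13 took 49.1%, 53.3% and 50.1% of the mucin reads in EA libraries and 27.8%, 26.8% and 26.4% in DMSO libraries. The exact (Clopper-Pearson) 95% intervals of these shares spanned 45.8% to 56.4% in EA libraries and 21.1% to 34.0% in DMSO libraries. MUC15 took 0.857%, 0.790% and 1.30% in EA libraries, with intervals from 0.342% to 2.27%, and 65.4%, 64.1% and 68.6% in DMSO libraries, with intervals from 57.4% to 74.2%. MUC16 took 18.5%, 16.3% and 10.9% in EA libraries, and its lower share in EA library 3 (interval 8.93% to 13.1%) lay outside that of EA library 2 (14.1% to 18.7%). MUC5AC took 15.2%, 12.4% and 19.6% in EA libraries, and there EA library 3 was the highest (interval 17.0% to 22.3%), apart from EA library 2 (10.5% to 14.6%). These shares are of reads, and long transcripts give more reads per molecule.

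Per kb of exon, the order of the genes changed. In EA cells MUC13 had 7.76 ± 0.692 CPM per kb, MUC5AC 0.478 ± 0.0849 and MUC16 0.189 ± 0.0632 (SD, n = 3 each), and these 3 did not overlap one another. After MUC16 came MUC4, MUC20, MUC12 and MUC15 at 0.175 to 0.146 CPM per kb, and from MUC16 to MUC15 each gene overlapped the next. MUC1 (0.0950) and MUC5B (0.0684) also overlapped, and MUC3A was last at 0.00858 CPM per kb.

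In DMSO cells MUC15 led with 1.79 ± 0.151 CPM per kb, MUC13 had 0.740 ± 0.0214, and MUC20 came next with 0.0328 ± 0.0265 (SD, n = 3 each). From MUC20 down to MUC16 each gene overlapped the next, so their order is not resolved. The highest mucin per kb was therefore MUC13 in EA cells and MUC15 in DMSO cells.

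Some of the members share sequence or position with other genes, which can move reads between rows. The single-gene rows of MUC20 are the least certain. MUC20-OT1, a non-coding RNA on the same strand, covers 42.83% of its exonic bases, and 28.67% of the 150-base words of its transcript also occur in the pseudogene MUC20P1. MUC20-OT1 itself had 501 reads in EA cells and 475 in DMSO cells and rose with EA by 0.54 on the log2 scale (SE 0.12, edgeR adjusted p = 0.000968). MUC15 lies inside ANO3 on the opposite strand and shares 175 exonic bases with it, 4.92% of its own. Without a known strand setting for the counting, reads over those shared bases cannot be told apart. ANO3 had 17 reads in EA cells and 75 in DMSO cells and fell by 1.66 on the log2 scale (SE 0.46, edgeR adjusted p = 0.00421). Within their own transcripts, 39.78% of the 150-base words of MUC12 and 24.32% of those of MUC1 were repeats, whereas the share was 0.09% for MUC16 and 0% for MUC13, MUC15 and MUC3A.

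The nearest protein-coding genes on the chromosome, up to a pair on each side of every member, show what surrounds the mucins. Of 28 such neighbours 18 were tested, of which 14 rose and 3 fell with EA, against 40.5% of all tested genes in each direction. Leaving out EA replicate 3 gave 15 that rose and 3 that fell. Their median log2 fold change was 0.68, against 0 over all tested genes. These neighbours include MUC2, itself a mucin. Among those that rose, MUC2 and APOD passed the filter on low counts through the EA libraries alone. Among those that fell, UFSP1 passed it through the DMSO libraries alone. Distances are those of GENCODE 29 on GRCh38, another build than the hg19 of the counts.

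On chromosome 11, where MUC6, MUC2, MUC5AC and MUC5B form a run of gel-forming mucins, all 4 had more reads in EA cells. MUC2, the main mucin of intestinal goblet cells, rose with 89 reads in EA cells and 5 in DMSO cells (log2 fold change 4.51, SE 0.49, edgeR adjusted p = 4.63e-07). MUC6, a gastric gland mucin, had 33 reads in EA cells and 9 in DMSO cells and was not tested in the fit of all libraries. Next to MUC5B lie TOLLIP, an inhibitor of Toll-like receptor signalling, and BRSK2, a kinase of neurons and islets, which rose by 0.50 (SE 0.07, edgeR adjusted p = 4.73e-06) and 0.94 (SE 0.25, edgeR adjusted p = 0.00307) on the log2 scale.

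On chromosome 7 the brush border mucin MUC17, 1.1 kb beyond MUC12, had 14 reads in EA cells and 0 in DMSO cells, too few to be tested. TRIM56, an antiviral ubiquitin ligase, rose by 1.19 on the log2 scale (SE 0.07, edgeR adjusted p = 5.7e-10), and on the other side UFSP1 fell by 1.12 (SE 0.40, edgeR adjusted p = 0.0187). MUC3A, between ACHE and MUC12, had 5 reads in EA cells and 7 in DMSO cells. MUC12 thus lay between a pair of mucins with far fewer reads.

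On chromosome 3, MUC20 and MUC4 lie 5.6 kb apart. The apolipoprotein gene APOD, 136.7 kb from MUC20, rose with 59 reads in EA cells and 2 in DMSO cells (edgeR adjusted p = 2.4e-06), while the transferrin receptor gene TFRC, 214.9 kb from MUC4, rose by 0.20 on the log2 scale (SE 0.06, edgeR adjusted p = 0.0109). Elsewhere on chromosome 3, around MUC13, the cation-chloride transporter family gene SLC12A8 rose to 39.3 ± 2.68 CPM in EA cells, against 0.579 ± 0.154 CPM in DMSO cells (SD, n = 3 each; log2 fold change 6.07, edgeR adjusted p = 3.42e-14). HEG1, a membrane-bound mucin-like protein, rose by 1.30 (SE 0.07, edgeR adjusted p = 8.81e-11), and the pyrimidine synthesis gene UMPS fell by 1.38 (SE 0.08, edgeR adjusted p = 2.85e-10).

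Around MUC16 on chromosome 19, the zinc finger gene ZNF558 rose by 0.91 on the log2 scale (SE 0.11, edgeR adjusted p = 2.39e-06). The other neighbours of MUC16, namely MBD3L1, OR1M1 and OR7G2, had 0 reads in every library. Around MUC15, no neighbour outside ANO3 was tested, and LUZP2, SLC5A12 and FIBIN had 0 reads in all libraries.

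**Figure D3:**
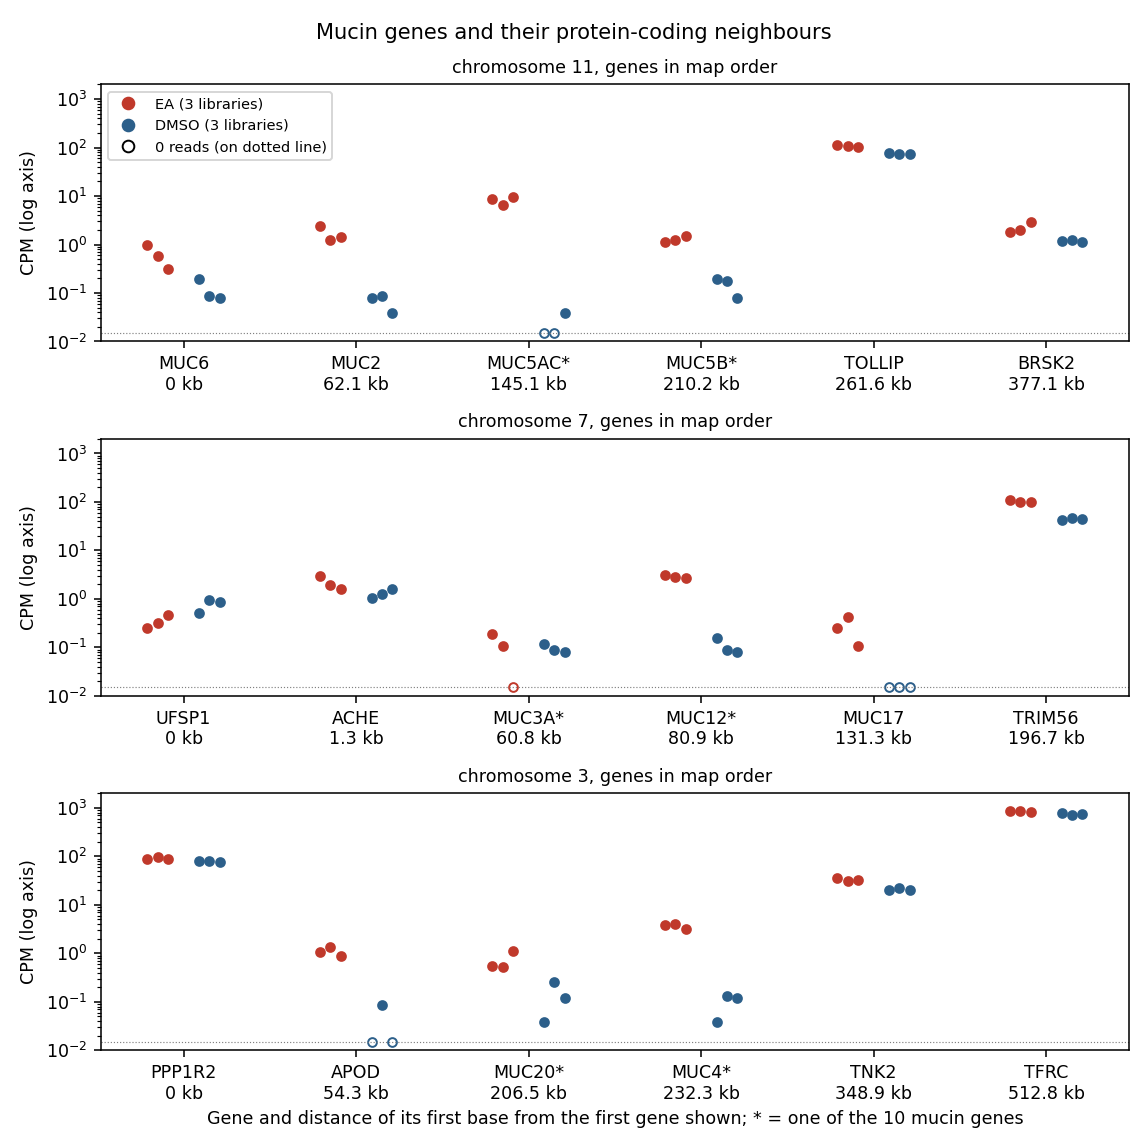
Level in every library, in CPM on a log axis, of genes in map order around the mucins of chromosomes 11, 7 and 3, with EA libraries in red left of DMSO libraries in blue. Asterisks mark members of the 10, and the distance of each gene from the first one shown is given in kb. MUC5AC and MUC12 lie far above their DMSO values, while MUC3A does not.

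Other genes of the wider mucin family were listed apart, though which of them fell outside the 10 was also decided with values in view. Of 13 with a row, 5 were tested, of which 3 rose and 2 fell, with a median log2 fold change of 1.35. Of the 3 that rose, MUC2 and MUC19 passed the filter on low counts through the EA libraries alone. Nothing is therefore read from this count or median. For this and every later list, the share over all 15648 tested genes was 40.5% called higher and 40.5% called lower. With 81.0% of genes called, a list with most of its genes called is not set apart. Some later lists also hold genes that passed the filter through 1 group alone, which lend nothing to their counts. Without EA replicate 3 the filter asks for fewer libraries, so more of these other mucin family genes passed it, and 5 rose and 2 fell. MUC19, a secreted gel-forming mucin, rose with 71 reads in EA cells and 13 in DMSO cells (log2 fold change 2.87, SE 0.40, edgeR adjusted p = 7.04e-06). OVGP1, the oviductal glycoprotein, rose by 1.35 (SE 0.16, edgeR adjusted p = 1.43e-06). The genes that fell were the endolyn gene CD164, at 247 ± 23.0 CPM in EA cells and 409 ± 17.3 CPM in DMSO cells (SD, n = 3 each; log2 fold change -0.73, edgeR adjusted p = 2.3e-07), and MCAM, an adhesion gene of the immunoglobulin family (log2 fold change -0.32, edgeR adjusted p = 0.000781). Both had more reads than any of the 10 in either group.

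The enzymes that start an O-glycan, the GALNT family, showed no common direction: of 9 tested, 2 rose, 4 fell and 3 were not called, with a median log2 fold change of -0.41. With EA replicate 3 left out, 2 rose and 6 fell. GALNT2 fell to 135 ± 3.79 CPM in EA cells, against 182 ± 3.77 CPM in DMSO cells (SD, n = 3 each; edgeR adjusted p = 1.21e-05). GALNT13 fell by 1.07 (SE 0.12, edgeR adjusted p = 7.83e-07) and GALNT6 by 1.87 (SE 0.24, edgeR adjusted p = 2.69e-06) on the log2 scale. GALNT16, with 5 reads in EA cells and 74 in DMSO cells, fell by 3.34 (SE 0.56, edgeR adjusted p = 5.08e-05). GALNT1, the most abundant of the list in EA cells at 163 ± 7.48 CPM, against 173 ± 5.48 CPM in DMSO cells, was not called (edgeR adjusted p = 0.222), but was called lower without EA replicate 3 (log2 fold change -0.15, edgeR adjusted p = 0.0159). GALNT4 was likewise called lower only without that library (log2 fold change -0.57, edgeR adjusted p = 0.0257).

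Of the 13 tested enzymes that extend or cap O-glycans, 6 rose, 3 fell and 4 were not called, with a median log2 fold change of 0.28. The counts were 7 and 4 without EA replicate 3. The sialyltransferase ST3GAL1, which caps the core 1 sugar and so can end its growth, rose to 359 ± 20.7 CPM in EA cells, against 95.1 ± 2.19 CPM in DMSO cells (SD, n = 3 each; log2 fold change 1.92, edgeR adjusted p = 1.02e-12). Among enzymes of branching and extension, GCNT1 (core 2 branching) rose by 1.9 (SE 0.18, edgeR adjusted p = 8.05e-08) and B3GNT3 (extension of core 1) by 1.40 (SE 0.11, edgeR adjusted p = 1.36e-08). C1GALT1, which makes core 1, fell by 0.47 (SE 0.07, edgeR adjusted p = 1.6e-05), and its chaperone C1GALT1C1 fell by 0.85 (SE 0.10, edgeR adjusted p = 1.87e-06). ST3GAL2, a sialyltransferase, was not called (edgeR adjusted p = 0.922), and was called lower without EA replicate 3 (log2 fold change -0.15, edgeR adjusted p = 0.0209).

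**Figure D4:**
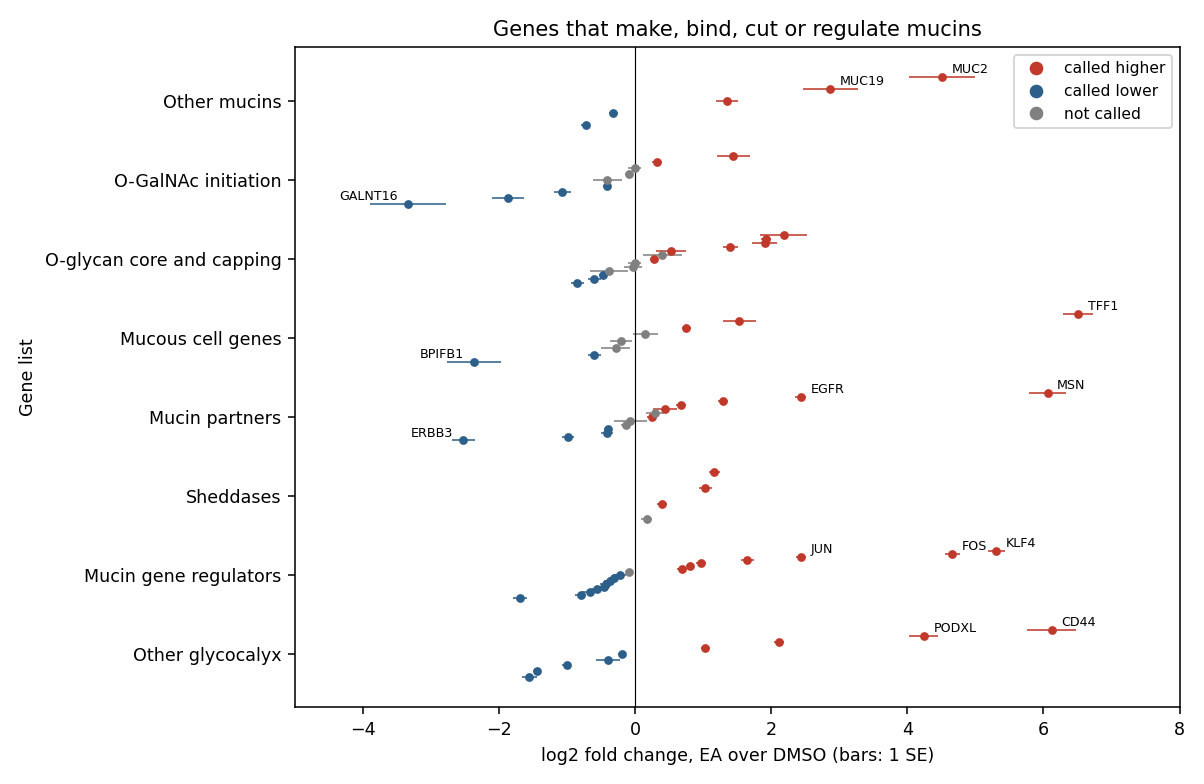
Log2 fold change of EA over DMSO for every tested gene of 8 lists related to mucins, with bars of 1 SE, coloured by the edgeR call. TFF2 is left out because it had 0 reads in DMSO cells. Points of both directions lie in each list with more than 4 genes.

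Proteins that mucins are known to bind moved in both directions: of 13 tested, 6 rose, 4 fell and 3 were not called, with a median log2 fold change of 0.25. Without EA replicate 3, 6 rose and 6 fell. Mesothelin (MSLN), the binding partner of MUC16, had 3.95 ± 0.652 CPM in EA cells and 2.92 ± 0.177 CPM in DMSO cells (SD, n = 3 each; log2 fold change 0.44, edgeR adjusted p = 0.0347), and this call was lost without EA replicate 3 (log2 fold change 0.27, edgeR adjusted p = 0.188). Galectin-3 (LGALS3), which binds sugars of MUC1 and MUC16, was not called (log2 fold change 0.29, SE 0.13, edgeR adjusted p = 0.0577), and was called higher without EA replicate 3 (log2 fold change 0.42, edgeR adjusted p = 1.48e-09). ERBB2, the receptor that MUC4 binds, fell to 75.7 ± 10.5 CPM in EA cells, against 151 ± 2.91 CPM in DMSO cells (SD, n = 3 each; log2 fold change -0.99, edgeR adjusted p = 4.43e-08).

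Of the receptors related to ERBB2, ERBB3 fell by 2.53 on the log2 scale (SE 0.17, edgeR adjusted p = 5.3e-06) and EGFR, a partner of MUC1, rose to 611 ± 71.8 CPM in EA cells, against 114 ± 3.77 CPM in DMSO cells (SD, n = 3 each; log2 fold change 2.43, edgeR adjusted p = 9.51e-13). MET, set against MUC20, rose by 0.67 (SE 0.07, edgeR adjusted p = 5.1e-07). Among the proteins that tie membrane mucins to actin, ezrin (EZR) rose by 1.29 (SE 0.07, edgeR adjusted p = 7.66e-11) and radixin (RDX) fell by 0.40 (SE 0.06, edgeR adjusted p = 2.06e-05). Moesin (MSN), with 554 reads in EA cells and 11 in DMSO cells, rose by 6.06 (SE 0.27, edgeR adjusted p = 1.41e-11). Beta-catenin (CTNNB1), which binds the MUC1 tail, was not called (log2 fold change -0.14, SE 0.07, edgeR adjusted p = 0.0669), and was called lower without EA replicate 3 (log2 fold change -0.20, edgeR adjusted p = 0.00153). ICAM1, an adhesion receptor that binds MUC1, was not called (log2 fold change -0.07, edgeR adjusted p = 0.797), and was called lower without EA replicate 3 (log2 fold change -0.42, edgeR adjusted p = 1.79e-11).

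Of the 4 proteases known to release mucin ectodomains, 3 rose, where 40.5% of all tested genes were called higher and 81.0% in either direction. So small a list sets nothing apart. ADAM17 had 115 ± 13.5 CPM in EA cells and 51.6 ± 1.49 CPM in DMSO cells (SD, n = 3 each; log2 fold change 1.16, edgeR adjusted p = 3.51e-09). MMP14 rose by 1.03 (SE 0.10, edgeR adjusted p = 1.45e-07) and ADAM9 by 0.39 (SE 0.07, edgeR adjusted p = 0.000112). ADAM10 was not called (log2 fold change 0.17, SE 0.08, edgeR adjusted p = 0.0531).

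Of 17 tested transcription factors reported to act on mucin genes, 7 rose, 9 fell and 1 was not called, with a median log2 fold change of -0.23. KLF4, a factor of gut and skin epithelium that is needed for goblet cells in mice, rose to 89.4 ± 6.16 CPM in EA cells, against 2.24 ± 0.387 CPM in DMSO cells (SD, n = 3 each; log2 fold change 5.31, edgeR adjusted p = 1.05e-14). The AP-1 members FOS and JUN rose by 4.66 (SE 0.11, edgeR adjusted p = 1.56e-14) and 2.44 (SE 0.07, edgeR adjusted p = 1.06e-13) on the log2 scale, and the epithelial ETS factor ELF3 by 1.65 (SE 0.09, edgeR adjusted p = 2.36e-10). The liver factor HNF4A fell by 0.56 (SE 0.07, edgeR adjusted p = 3.38e-06).

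Of 9 tested genes for other heavily glycosylated proteins of the cell surface, 4 rose and 5 fell, with a median log2 fold change of -0.19. Leaving out EA replicate 3 gave 5 that rose and 5 that fell. Podocalyxin (PODXL), a sialomucin, rose to 121 ± 26.0 CPM in EA cells, against 6.37 ± 1.06 CPM in DMSO cells (SD, n = 3 each; log2 fold change 4.24, edgeR adjusted p = 4.28e-07). CD44, a hyaluronan receptor, rose with 428 reads in EA cells and 8 in DMSO cells (log2 fold change 6.12, SE 0.36, edgeR adjusted p = 5.39e-10). GPC1 rose by 2.11 (SE 0.07, edgeR adjusted p = 9.44e-13) and SDC2 fell by 1.45 (SE 0.06, edgeR adjusted p = 8.86e-12), both being heparan sulphate proteoglycans. SDC4, another of these, rose by 1.03 (SE 0.07, edgeR adjusted p = 1.23e-09). GPC3, the list's most abundant gene and a marker of liver cancer, fell to 1149 ± 33.6 CPM in EA cells, against 2307 ± 73.2 CPM in DMSO cells (SD, n = 3 each; edgeR adjusted p = 1.33e-09).

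Genes of mucus-making cells were looked at beside the mucins. Of 9 tested, 4 rose, 2 fell and 3 were not called, with a median log2 fold change of 0.15. TFF1 and TFF2 passed the filter through the EA libraries alone and BPIFB1 through the DMSO libraries alone. Nothing is therefore read from this count or median. Without EA replicate 3, 4 rose and 3 fell. The trefoil factor TFF1, a peptide secreted together with MUC5AC in the stomach, rose to 25.1 ± 2.98 CPM in EA cells, against 0.269 ± 0.145 CPM in DMSO cells (SD, n = 3 each; log2 fold change 6.51, SE 0.22, edgeR adjusted p = 6.37e-13). TFF2 was also called higher, with 90 reads in EA cells and 0 in DMSO cells (edgeR adjusted p = 1.27e-07), and TFF3 rose by 1.53 (SE 0.24, edgeR adjusted p = 2.23e-05). The chloride transporter SLC12A2 rose by 0.75 (SE 0.07, edgeR adjusted p = 9.23e-08), whereas the mucin-type branching enzyme GCNT3 fell by 0.60 (SE 0.10, edgeR adjusted p = 0.000132). BPIFB1, also of this list, fell by 2.37 (SE 0.39, edgeR adjusted p = 4.92e-05), with 10 reads in EA cells and 73 in DMSO cells. The goblet cell genes AGR2 (log2 fold change -0.29, edgeR adjusted p = 0.209) and ERN2 (0.15, edgeR adjusted p = 0.48) were not called, but AGR2 was called lower without EA replicate 3 (log2 fold change -0.61, edgeR adjusted p = 0.00183). CLCA1 was at 0 in all libraries, and SPDEF had 35 reads in EA cells and 3 in DMSO cells.

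Markers of cell types, including some in which mucins are known, moved in both directions, and their part in the mucin levels was not tested. Hepatocyte markers summed to 13170 to 13680 CPM in EA libraries and 49120 to 52000 CPM in DMSO libraries. Of these markers 8 of 9 were called lower, where 40.5% of all tested genes were called lower. APOB, the most abundant of them in DMSO cells, had 3080 ± 691.5 CPM in EA cells and 29450 ± 1102 CPM in DMSO cells (SD, n = 3 each, log2 fold change -3.26, edgeR adjusted p = 6.61e-09). Biliary markers summed to 1850 to 2059 CPM in EA libraries and 2068 to 2108 CPM in DMSO libraries, with KRT19 higher and 4 of the 5 tested lower. CFTR and KRT7 of this list had 12 and 16 reads in EA cells and 0 and 2 in DMSO cells. Mesothelial markers, which go with MUC16 in the body, summed to 14.2 to 23.7 CPM in EA libraries and 5.82 to 6.35 CPM in DMSO libraries. Of 4 tested, CALB2 and MSLN rose, LRRN4 fell by 0.92 (SE 0.39, edgeR adjusted p = 0.0399) and UPK3B was not called (log2 fold change -0.75, edgeR adjusted p = 0.0546), though it was called lower without EA replicate 3 (log2 fold change -1.11, edgeR adjusted p = 0.00875). CALB2 made up most of that in EA cells, while WT1 had 19 reads in EA cells and 33 in DMSO cells.

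Squamous markers summed to 7.47 to 9.62 CPM in EA libraries and 0 to 0.0870 CPM in DMSO libraries, nearly all from KRT14, with KRT5 and IVL at 0 in every library and TP63 with 1 read in each group. Leukocyte markers summed to 1.17 to 2.27 CPM in EA libraries and 3.001 to 3.27 CPM in DMSO libraries, with PTPRC, CD3E and CD68 at 0. Fibroblast markers summed to 4.56 to 6.34 CPM in EA libraries and 16.4 to 17.5 CPM in DMSO libraries, with COL1A2 and DCN at 0.

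Genes whose levels over the 6 libraries were closest to those of the leading mucins were looked for among 19248 protein-coding genes, by Euclidean distance of log2 CPM with a prior count of 2. Nearest to MUC16 were SMOC2, a matricellular protein gene (distance 0.57, at 7.65 ± 0.726 CPM in EA cells and 0 in DMSO cells), CCNA1, a germ cell cyclin (0.77), and SCEL, a gene of the cornified envelope (0.84). Nearest to MUC13 were GNAT2 (0.22), KCTD11 (0.41) and SAMD5 (0.55), and nearest to MUC15 were ASB4 (0.47), LRRCC1 (0.57) and GXYLT2 (0.63). With only 6 libraries in 2 groups, such likeness follows mainly from the mean of each group.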

How the data were processed

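RNA was sequenced from 6 HepG2 libraries, 3 with EA and 3 with DMSO. Libraries were NEBNext Ultra from TRIzol RNA, read as 150-base pairs on a HiSeq, per the labels' protocols. The tools named are HTSeq 0.6.1, HISAT, cutadapt 1.9.1 and bcl2fastq 2.17.1.14, with the build hg19, per the submitters' processing notes. The HISAT version, the annotation release and the strand setting were not found in these sources. The authors deposited raw counts, whole reads per gene, not normalised, in 1 table of 52408 rows.

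From these counts, filterByExpr (minimum count 10), TMM scaling and the robust quasi-likelihood F test of edgeR 4.0.16 (in R 4.3.3) with Benjamini-Hochberg adjustment over 15648 genes compared EA with DMSO. Levels are CPM on TMM-scaled library sizes, and each SE is the absolute log2 fold change divided by the root of its F. Ratios from few reads carry 95% exact counting intervals, and against 0 reads a fold is a bound from 3 reads over the group. Reads were not tagged by molecule, so they are not independent, and intervals and floors cover counting error only. GENCODE 29 gave exonic lengths, overlaps and neighbours on GRCh38, not on hg19, so none of its coordinates are given; 99.8% of rows had a length. Reads shared between overlapping or near-identical genes could not be separated.

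The mucin members and all gene lists were chosen with earlier results of these data known. Besides the members and their neighbours, the text names in each list up to 4 called genes with the smallest p, the gene with the highest level and known partners of a member; for MUC16, MUC13 and MUC15 it names the 3 genes with the closest levels. Named outside this rule, with values seen, were genes at or near 0 reads, marker genes and genes whose call changed without EA replicate 3. So were RDX, ERBB3, MCAM, C1GALT1, PODXL, MUC6, SPDEF, ERN2, HNF4A, BPIFB1 and SP1. MUC3B and FCGBP are not analysed here.

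The test was run on simulated counts with 200 genes changed. It recovered 74% of 1.5-fold changes, 86% of 2-fold changes and 100% of 4-fold and 8-fold changes, with 7 false calls among 15244 genes. In the real data 81.0% of tested genes were called, so the simulation does not check the fit where most genes change. Alternatives were DESeq2 1.42.0, limma-voom (limma 3.58.1), other scalings, no filter, a filter of 1 CPM in 3 libraries, an adjusted p of 0.01, a replicate block and each library left out. Deviations of same-numbered EA and DMSO libraries from their group means correlated at -0.08, 0.03 and -0.02, so the numbers were not taken as pairs.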

Additional observations from a re-analysis of the deposited data

How the results depend on the processing

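The direction of each of the 8 tested mucins held under every alternative run. The log2 fold change ranged over 3.25 to 3.43 for MUC13, 4.81 to 5.45 for MUC4, 4.45 to 5.00 for MUC12, 2.71 to 3.27 for MUC5B, 1.93 to 3.12 for MUC20 and -3.80 to -3.47 for MUC15. For MUC16 and MUC5AC, with 0 and 1 reads in DMSO cells, the fitted change depends on the prior count (8.6 to 10.71 and 8.14 to 10.40). The floor-based fold and the counting intervals do not use it. MUC5AC had no read in DMSO cells without DMSO replicate 3. MUC20 left no value under the filter of 1 CPM in 3 libraries. The number of members with a higher mean in EA cells was 9 and fell to 8 only where MUC3A, on a handful of reads, changed side.

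The fit called 12680 genes. DESeq2 called 12148, limma-voom 12705, no filter 14923, the stricter filter 11622 and an adjusted p of 0.01 11592. Leaving out each replicate in turn gave 12302 to 13613 genes called, 62 to 73 called genes in the 8 mucin lists (63 with all libraries) and 14 to 18 called neighbours (17 with all libraries). A replicate block, for numbers that do not pair the samples, gave 12537 genes called, 35 list genes higher and 28 lower, and 14 neighbours higher and 3 lower. Among single lists, no filter gave 6 other mucins higher and 5 GALNT genes higher, the stricter filter gave 1 mucous cell gene lower, and an adjusted p of 0.01 gave 3 other glycocalyx genes lower. Depth limits MUC1, MUC3A, MUC20 and the DMSO side of most members, which rest on 0 to 11 reads a group.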
